A study of Homo sapiens with 6 samples.

Results

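Collagens and the enzymes that modify, process and cross-link them were followed in cells of the human glioblastoma line U87MG, kept for 24 h in medium without serine and glycine (deprived) or in complete medium with both amino acids. Each medium had 3 RNA libraries, which are called deprived 1, 2 and 3 and complete 1, 2 and 3 after their titles. RNA was turned into QuantSeq 3′ libraries, in which reads come from transcript ends. All cells had been maintained before in DMEM with 10% fetal bovine serum, and the labels name no allele or other agent. The members were 38 genes chosen by symbol: 16 collagen chains, 16 genes for collagen folding, hydroxylation, processing and cross-linking, and 6 other matrix glycoproteins. All 38 were in the count table, which has 25737 rows, and 34 had enough counts to be tested. U87MG is 1 line, grown without the other cells of a tumour. Nothing in the labels ties the libraries to separate cultures, so p-values reflect only how far these libraries spread, and that spread may be technical.

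Collagens are trimers wound into a helix in which glycine recurs at every 3 residues, since no larger side chain fits at the centre of the helix. Proline and lysine residues of the new chains are hydroxylated in the endoplasmic reticulum, where the chaperone SERPINH1 binds the folded trimer, and proteases and lysyl oxidases finish and cross-link the secreted fibril. Glycine is a nonessential amino acid that cells make from serine, and collagen holds more of it than most proteins do. Glioblastoma cells are known to secrete matrix proteins such as tenascin C, fibronectin and SPARC.

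The glycine demand can be read from the coding sequences. In the longest GENCODE release 29 coding sequence of each gene, glycine codons made up 9.17% to 27.9% of codons in the 13 collagen chains tested, with a median of 23.3%. The 21 other members tested had 3.70% to 11.6%, with a median of 7.15%, and the 11463 genes tested that had a coding sequence there had a median of 6.34%. The serine codon share was lower in the collagen chains, at a median of 4.74%, than in all genes tested, at 7.60%. Each of the 16 collagen chains held at least 20 consecutive triplets that begin with a glycine codon, against at most 4 in any other member. The longest such run had 338 triplets in COL1A1, 339 in COL1A2, 339 in COL5A2 and 61 in COL8A1. All 41 exons lying wholly inside the run of COL1A1 had a length that is a multiple of 9 bases, and 21 of them had 54 bases. The stretches that follow show this repeat in COL1A1, COL5A2 and COL8A1, which were among the chains lower in deprived medium in the fit without deprived 2 and complete 1 described further on, and in COL1A2, the partner of COL1A1. Each is 54 coding bases of the GRCh38 reference, read 5′ to 3′ on the coding strand, with glycine codons in capitals.
COL1A1, exon 8, chr17:50197949-50198002, minus strand: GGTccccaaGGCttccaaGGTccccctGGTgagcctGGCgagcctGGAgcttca
COL1A2, exon 8, chr7:94404693-94404746, plus strand: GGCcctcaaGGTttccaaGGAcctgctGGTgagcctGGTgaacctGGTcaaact
COL5A2, exon 10, chr2:189085719-189085772, minus strand: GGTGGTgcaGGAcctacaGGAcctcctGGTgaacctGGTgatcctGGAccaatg
COL8A1, exon 5, chr3:99794952-99795005, plus strand: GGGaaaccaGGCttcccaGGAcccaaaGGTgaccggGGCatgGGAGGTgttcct
Glycine took 6 or 7 of the 18 codons in each stretch. The stretches of COL1A1 and COL1A2 shared 40 of 54 bases, and those of COL1A1 and COL5A2 shared 33.

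Libraries that carry the same label differed among themselves. Total counts were 7001929 to 7102846 in deprived and 6249706 to 7247995 in complete libraries, where 3 counts correspond to 0.414 to 0.480 CPM, counts scaled to a common library size. ASNS, the asparagine synthetase gene that is induced when amino acids run short, stood at 152, 24.97 and 146 CPM in deprived and 134, 26.1 and 19.9 CPM in complete libraries. PHGDH, the enzyme of the first step of serine synthesis, stood at 201, 64.3 and 212 CPM in deprived and 193, 59.3 and 58.9 CPM in complete libraries. Their values in deprived 2 and complete 1 thus went against their labels, and whether the labels of this pair were exchanged cannot be told from the labels. Every fold change, call and order given by label rests on these labels as deposited. Member calls and fold changes without this pair follow the values by label. MALAT1, an abundant nuclear noncoding RNA, took 3.24%, 1.93% and 3.11% of counts in deprived libraries 1, 2 and 3, and 2.75%, 1.92% and 1.90% in complete libraries. The part of this difference between libraries in the values that follow was not tested.

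By label, no member passed the test. Of the 34 members tested, 0 had an adjusted p under 0.05 by the quasi-likelihood test of edgeR (Benjamini-Hochberg adjustment), as did 0 of all 13068 genes, a background of 0%, and all 34 adjusted p were 0.999. DESeq2 and limma-voom also called 0 members and 0 genes. At an unadjusted p under 0.05 in edgeR there were 0 members, against 1.89% of all genes. The log2 fold change, deprived over complete, was negative in 27 of the 34 members and in 6406 of the 13068 genes. Its median was -0.07 over the members, against 0.0033 over all genes tested. The members share the same libraries, so their signs are not separate observations. Members ran from -0.28 for COL5A2 to 0.12 for COL16A1, with a median standard error of 0.11. Fold changes of single genes are written ± standard error (SE). The ranges of the labels did not overlap in 2 members, COL5A1 and PLOD2, both lower in deprived libraries, which is 5.88% of the members tested against a background of 3.49% of genes. In 0 members did all deprived libraries lie above all complete libraries, against 3.48% of genes. A p above the threshold does not show that the levels were equal. In bulk RNA such as this, fewer cells of a type and less RNA per cell cannot be told apart.

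**Figure D1:**
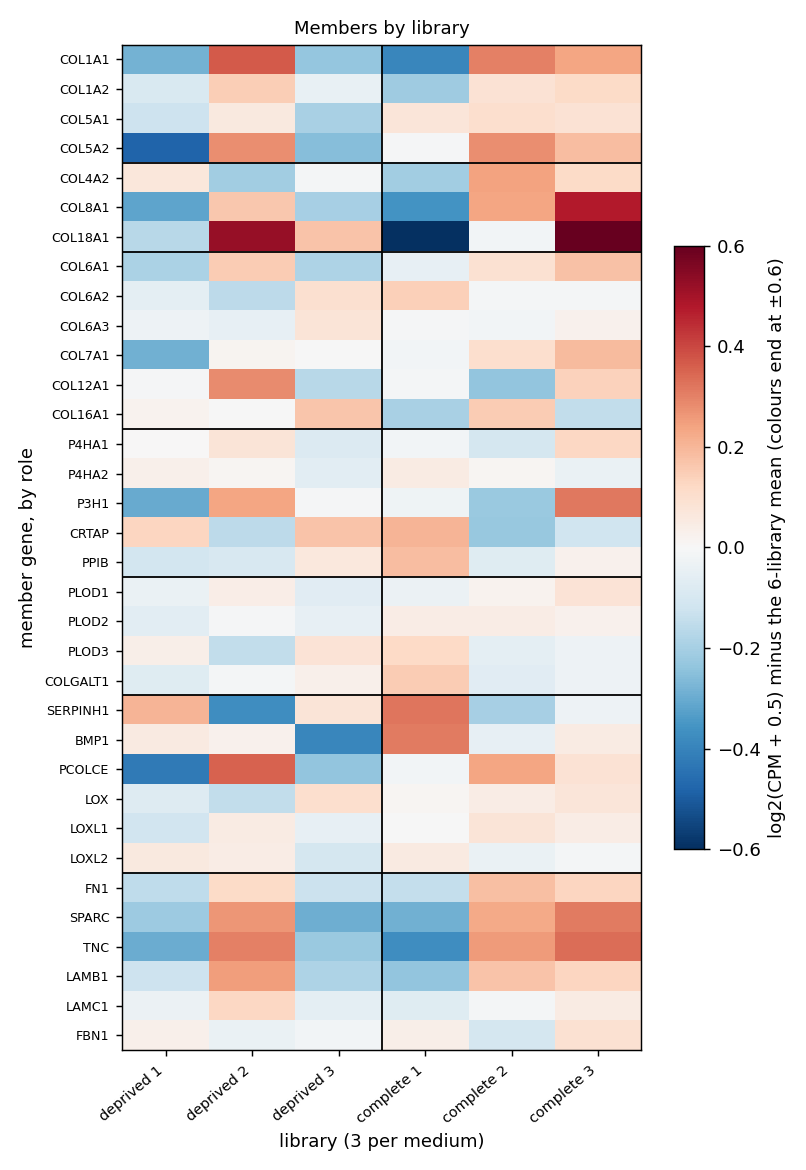
Heat map of the 34 members tested (rows, grouped by role with black lines) in the 6 libraries (columns), as log2(CPM + 0.5) minus the mean of the gene over all libraries. COL1A1, COL8A1, SPARC and TNC are below their mean in deprived 1, deprived 3 and complete 1 and above it in deprived 2, complete 2 and complete 3, while COL6A3 and FBN1 stay near 0 throughout.

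In what follows, values are TMM-scaled CPM, a library scaling that evens out composition, and the values of a medium are in the order of library 1, 2 and 3. Since reads come from transcript ends, CPM is not divided by length. Among the fibrillar chains, COL1A1, the alpha 1 chain of type I collagen, measured 213, 334 and 220.3 CPM in deprived and 197, 319.7 and 306 CPM in complete libraries. Deprived 1, deprived 3 and complete 1 were the lower libraries and the labels overlapped. Its log2 fold change was -0.10 ± 0.21, within the spread between libraries, with means of 256 ± 68.01 CPM in deprived and 274 ± 67.00 CPM in complete libraries (SD, n = 3 each). COL1A2, the alpha 2 chain of the same trimer, measured 214, 253 and 221 CPM in deprived and 196, 242 and 247 CPM in complete libraries, with the same libraries lowest but a smaller distance to the others. The highest library exceeded the lowest 1.69-fold for COL1A1 and 1.29-fold for COL1A2.

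The balance of these partner chains also differed between libraries. COL1A1 had 0.996, 1.32 and 0.999 counts for each COL1A2 count in deprived libraries, and 1.00, 1.32 and 1.24 in complete libraries, a ratio free of library scaling. By label, the ratio averaged 1.11 ± 0.188 in deprived and 1.19 ± 0.165 in complete libraries (SD, n = 3 each), with a two-sided exact permutation p of 0.6 on the log2 ratio. It was 1 of 7 ratios tested so, the smallest p that 3 against 3 libraries allow is 0.1, and the Benjamini-Hochberg adjusted value was 1.0 for each of the 7. In the libraries other than deprived 2 and complete 1, COL1A1 for each COL1A2 count averaged 0.997 in deprived and 1.28 in complete libraries, values of 2 libraries each and with no test. The ratio of COL5A1 to COL5A2, partner chains of type V collagen, was 2.90, 1.93 and 2.35 in deprived and 2.38, 1.99 and 2.11 in complete libraries. Without the pair its means were 2.63 in deprived and 2.05 in complete libraries. SERPINH1, the chaperone, had 0.388, 0.165 and 0.342 counts for each COL1A1 count in deprived libraries and 0.454, 0.195 and 0.229 in complete libraries, and without the pair the means were 0.365 in deprived and 0.212 in complete libraries.

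Type V collagen seeds thin fibrils together with type I. COL5A1 measured 64.4, 73.2 and 61.3 CPM in deprived and 73.8, 75.3 and 74.7 CPM in complete libraries, the deprived libraries all lying below the complete ones. It had the smallest p of the fibrillar chains, with a log2 fold change of -0.17 ± 0.09, and an unadjusted edgeR p of 0.102. COL5A2 measured 22.2, 37.9 and 26.04 CPM in deprived and 31.02, 37.9 and 35.4 CPM in complete libraries, lowest in deprived 1 and highest in deprived 2 and complete 2, which were level. Its log2 fold change of -0.28 was the most negative of the members with all libraries, with a standard error of 0.19, and it ran from -0.53 without deprived 2 to -0.12 without deprived 1, where BMP1 was the most negative of the members at -0.29. COL3A1, which forms the fibrils of soft tissue, and COL11A1, the cartilage fibril chain, were hardly counted. COL3A1 had 0, 1 and 4 counts in deprived and 1, 2 and 6 counts in complete libraries. COL11A1 had 6, 4 and 6 counts in deprived and 8, 2 and 6 counts in complete libraries, and neither gene was tested.

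**Figure D2:**
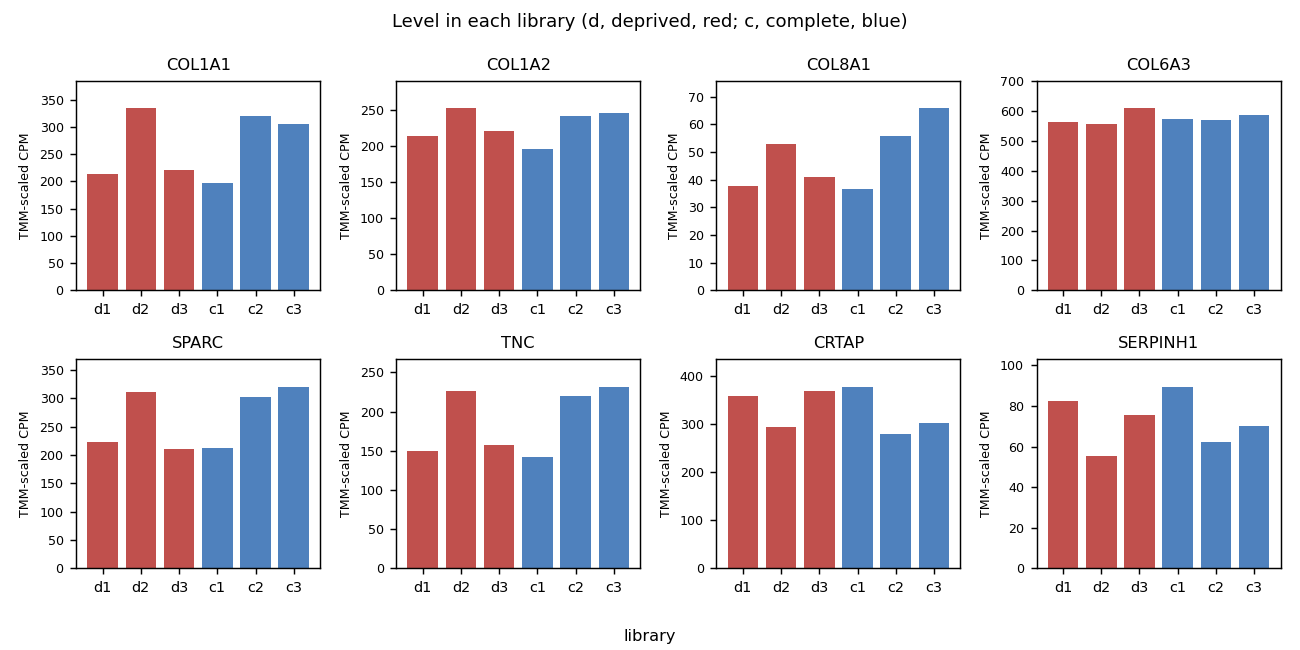
TMM-scaled CPM (vertical axes, from 0) of 8 members in each of the 6 libraries, 1 bar per library, deprived in red on the left and complete in blue on the right. COL1A1, COL8A1, SPARC and TNC are highest in deprived 2, complete 2 and complete 3, CRTAP and SERPINH1 are lowest there, and COL6A3 lies between 558 and 610 CPM.

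The basement membrane chains were unequal. COL4A2 measured 9.73, 7.94 and 9.20 CPM in deprived and 7.95, 11.1 and 10.1 CPM in complete libraries, with overlapping labels and a log2 fold change of -0.12 ± 0.20. COL4A1, its partner chain in type IV collagen, encoded head to head with it, had 0, 2 and 1 counts in deprived and 1, 1 and 0 counts in complete libraries. All 6 values of COL4A1 lie under the floor of 3 counts, so no fold is given. COL8A1, a short chain of sheet-like networks, measured 37.8, 52.9 and 41.03 CPM in deprived and 36.7, 55.7 and 65.8 CPM in complete libraries. Its lowest libraries were deprived 1, deprived 3 and complete 1, and its log2 fold change was -0.27 ± 0.21, from -0.47 without complete 1 to -0.08 without complete 3. COL18A1, whose tail is cut to release endostatin, had 11, 20 and 15 counts in deprived and 2, 13 and 28 counts in complete libraries. Its fitted log2 fold change was 0.05 ± 0.64, but limma-voom gave 0.54, and without deprived 2 and complete 1 edgeR gave -0.67 ± 0.48.

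Type VI collagen, which forms beaded filaments around cells, was measured in its 3 main chains. COL6A1 stood at 397, 503 and 398 CPM in deprived and 438, 482 and 512 CPM in complete libraries, lowest in deprived 1, deprived 3 and complete 1, with a log2 fold change of -0.14 ± 0.11. COL6A2 stood at 105, 98.2 and 117 CPM in deprived and 121, 108 and 109 CPM in complete libraries, and its labels overlapped with deprived 2 lowest. COL6A3 stood at 565, 558 and 609.7 CPM in deprived and 575, 571 and 587 CPM in complete libraries, the narrowest range of the collagen chains, its highest library exceeding its lowest 1.09-fold. The count ratio of COL6A1 to COL6A2 was 3.78, 5.13 and 3.41 in deprived and 3.62, 4.44 and 4.72 in complete libraries, again lower in deprived 1, deprived 3 and complete 1, and without the pair it averaged 3.59 in deprived and 4.58 in complete libraries. COL6A3 for each COL6A2 count was 5.38, 5.68 and 5.22 in deprived and 4.75, 5.26 and 5.41 in complete libraries, with means of 5.30 in deprived and 5.34 in complete libraries without the pair. The 3 chains thus did not share 1 order of libraries.

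The anchoring fibril chain COL7A1 measured 30.6, 38.02 and 37.5 CPM in deprived and 37.1, 40.4 and 42.8 CPM in complete libraries, with a log2 fold change of -0.18 ± 0.12. Its lowest value was in deprived 1, and the labels overlapped. COL12A1 and COL16A1 sit on the surface of fibrils made by other collagens. COL12A1 measured 24.8, 30.4 and 22.1 CPM in deprived and 24.7, 21.01 and 27.4 CPM in complete libraries, and COL16A1 measured 16.7, 16.5 and 18.5 CPM in deprived and 14.3, 18.4 and 14.8 CPM in complete libraries. Both had positive log2 fold changes, 0.08 ± 0.16 for COL12A1 and 0.12 ± 0.16 for COL16A1. Neither separated the labels.

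**Figure D3:**
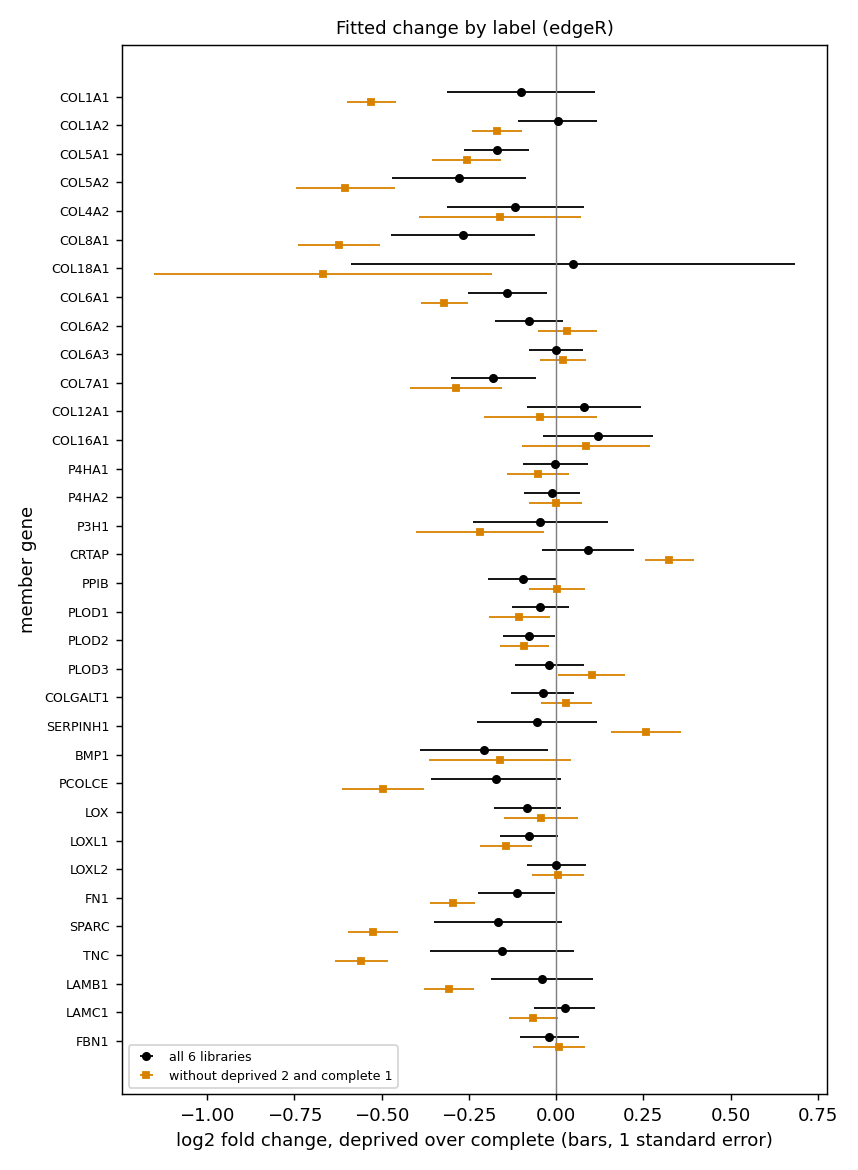
Log2 fold change, deprived over complete, of the 34 members tested (rows), from all 6 libraries (black circles) and without deprived 2 and complete 1 (orange squares), with bars of 1 standard error. With all libraries the values lie between -0.28 and 0.12. Without the pair of libraries, which were picked by their values, COL1A1, COL5A2, COL8A1, COL18A1, SPARC and TNC lie below -0.5 and CRTAP at 0.32. COL18A1 is lowest, at -0.67 with a standard error of 0.48, and was not called.

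P4HA1 and P4HA2 are catalytic subunits of the prolyl 4-hydroxylase, whose product stabilises the helix. Their highest library exceeded their lowest by less than in most collagen chains. P4HA1 measured 115, 121 and 108 CPM in deprived and 113, 107 and 125 CPM in complete libraries, with a log2 fold change of -0.0018 ± 0.09. P4HA2 measured 186, 184 and 174 CPM in deprived and 188, 183 and 177 CPM in complete libraries. Its antisense neighbour P4HA2-AS1 was listed with 1009, 1044 and 918 counts in deprived and 893, 1015 and 899 counts in complete libraries, and the strand setting of the counting is not given, so reads of the pair cannot be told apart. P4HA3, the third catalytic subunit, had 0 to 2 counts in deprived and 1 to 3 counts in complete libraries and was not tested.

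P3H1, CRTAP and PPIB form the complex that hydroxylates proline at its other position and helps the chains fold. They did not vary alike. CRTAP, the scaffold of the complex, measured 359, 294 and 369.6 CPM in deprived and 378, 280.0 and 302 CPM in complete libraries, highest in deprived 1, deprived 3 and complete 1. Its log2 fold change was 0.09 ± 0.13. P3H1, the enzyme, measured 16.7, 24.5 and 20.7 CPM in deprived and 20.4, 17.7 and 25.9 CPM in complete libraries, its highest libraries being deprived 2 and complete 3. PPIB, a proline isomerase, measured 145, 146 and 164 CPM in deprived and 178, 148 and 159 CPM in complete libraries, with a log2 fold change of -0.10 ± 0.10, the smallest p of the prolyl enzymes.

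Lysyl hydroxylases prepare the residues used for cross-links and sugars. PLOD2, which acts on the chain ends, measured 261, 272 and 264 CPM in deprived and 281, 282 and 278 CPM in complete libraries. Each deprived library lay below each complete one, by a log2 fold change of -0.08 ± 0.07. PLOD1, which acts on the helix, measured 90.9, 95.9 and 89.00 CPM in deprived and 91.00, 94.7 and 98.9 CPM in complete libraries, and PLOD3, which also transfers sugars, measured 74.98, 66.1 and 77.4 CPM in deprived and 79.5, 70.2 and 71.7 CPM in complete libraries, both overlapping between labels. COLGALT1, the galactosyltransferase of hydroxylysine, measured 197, 206 and 212 CPM in deprived and 231, 198 and 203 CPM in complete libraries, highest in complete 1. The log2 fold changes of these 4 genes lay between -0.08 and -0.02.

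Of the genes for chaperoning, processing and cross-linking, 5 of 6 had negative log2 fold changes, beside 6406 of all 13068 genes, and 0 passed. SERPINH1, the collagen chaperone also known as HSP47, measured 82.6, 55.2 and 75.4 CPM in deprived and 89.6, 62.2 and 69.97 CPM in complete libraries. Its lowest libraries were deprived 2 and complete 2, and the log2 fold change was -0.06 ± 0.17. BMP1, the protease that removes the carboxyl propeptide, measured 15.6, 15.3 and 11.3 CPM in deprived and 18.8, 14.5 and 15.6 CPM in complete libraries, with a log2 fold change of -0.21 ± 0.18. PCOLCE, which enhances that cleavage, measured 37.8, 65.1 and 43.02 CPM in deprived and 50.3, 59.98 and 53.96 CPM in complete libraries, lowest in deprived 1, deprived 3 and complete 1.

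The lysyl oxidases form the cross-links between secreted chains. LOX measured 56.2, 53.5 and 63.7 CPM in deprived and 59.98, 61.2 and 62.4 CPM in complete libraries, with a log2 fold change of -0.08 ± 0.10. LOXL1 measured 174, 195 and 182 CPM in deprived and 188, 198 and 194 CPM in complete libraries, and LOXL2 measured 262, 260.3 and 235 CPM in deprived and 262, 245 and 249.8 CPM in complete libraries, with overlapping labels in both. LOXL1-AS1, an antisense neighbour of LOXL1, had 80, 131 and 78 counts in deprived and 76, 120 and 130 counts in complete libraries, far fewer than the 1180 to 1435 counts of LOXL1 itself.

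The matrix glycoproteins included the member with the highest counts. FN1, fibronectin, which cells assemble into fibrils before collagen is laid down, measured 1673, 2018 and 1701 CPM in deprived and 1687, 2110.1 and 2034 CPM in complete libraries. Deprived 2, complete 2 and complete 3 were the higher libraries, and the log2 fold change was -0.11 ± 0.11. SPARC, a secreted protein that binds collagen, measured 222, 311 and 211 CPM in deprived and 212, 303 and 321 CPM in complete libraries. TNC, tenascin C, measured 149, 227 and 157 CPM in deprived and 142, 219.6 and 232 CPM in complete libraries, and both SPARC and TNC had the same 3 lower libraries as FN1. LAMB1 and LAMC1 encode laminin chains of the basement membrane. LAMB1 measured 207, 269 and 199 CPM in deprived and 192, 255 and 247 CPM in complete libraries, and LAMC1 measured 274, 307 and 269.8 CPM in deprived and 267, 278 and 291 CPM in complete libraries. FBN1, the fibrillin of elastic microfibrils, measured 257, 245 and 249 CPM in deprived and 258, 234 and 268 CPM in complete libraries, with overlapping labels and no library apart.

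The order of libraries was shared by many members. For 14 of the 34 members tested, deprived 1, deprived 3 and complete 1 held the 3 lowest values, which is 41.2% against 17.7% of all genes, and for 3 members they held the 3 highest, or 8.82%, against 18.3% of all genes. The 14 were COL1A1, COL1A2, COL5A2, COL8A1, COL6A1, COL7A1, PLOD1, PCOLCE, LOXL1, FN1, SPARC, TNC, LAMB1 and LAMC1. The 3 were CRTAP, PLOD3 and SERPINH1. This set of libraries was singled out after its values were seen and crosses the labels, so the counts describe these libraries and test nothing about the medium. Since members were chosen with earlier results of these data known, their shares beside all genes are no independent evidence either. The members together took 0.654%, 0.742% and 0.663% of all counts in deprived libraries and 0.678%, 0.739% and 0.756% in complete libraries.

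Without deprived 2 and complete 1, left out because of their values, 9 of 34 members were lower and 1 was higher in deprived medium at an edgeR adjusted p under 0.05. That is 26.5% lower, against a background of 7.38% of 13145 genes, and 2.94% higher, against 8.57%. The lower members were COL1A1, COL5A2, COL6A1, COL8A1, PCOLCE, FN1, SPARC, TNC and LAMB1. TNC had a log2 fold change of -0.56 ± 0.08 and an edgeR adjusted p of 1.03e-06. COL1A1 had -0.53 ± 0.07 and an edgeR adjusted p of 8.85e-07, and SPARC -0.52 ± 0.07. The largest changes in size among the called members were those of COL8A1, at -0.62, and COL5A2, at -0.60, with standard errors of 0.12 and 0.14. FN1, LAMB1 and COL6A1 had smaller ones of -0.30, -0.31 and -0.32, and PCOLCE had -0.50. CRTAP was the higher member, at 0.32 ± 0.07. SERPINH1, at 0.26, and COL5A1, at -0.26, missed the threshold, with edgeR adjusted p of 0.0756 and 0.0752. Because the pair of libraries was chosen by value, these p-values are no independent test of the medium. The members were also chosen with earlier results of these data known, so their shares beside all genes are no independent evidence.

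By role, these calls stand beside a background of 7.38% of genes lower and 8.57% higher in the same fit. Of the 15 tested enzymes, partners and chaperones of hydroxylation, processing and cross-linking, PCOLCE was called lower and CRTAP higher. The log2 fold changes of the others ran from -0.22 for P3H1 to 0.26 for SERPINH1. Of the 13 collagen chains tested, 4 were called lower and 0 higher, and of the 6 glycoproteins 4 were called lower. The difference between these groups was not tested.

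Glycine codon share was set beside the fold change by label. Across the 34 members tested, Pearson's r between glycine codon share and log2 fold change was -0.31, a description of points that share libraries, and over 11463 genes it was -0.0062. With deprived 2 and complete 1 left out, r was -0.42 across the members and 0.016 over 11436 genes. In that fit the log2 fold change was -0.62 for COL8A1, with 25.5% glycine codons, and 0.08 for COL16A1, with 24.4%. Among members with fewer glycine codons, it was -0.52 for SPARC, with 4.62%, -0.56 for TNC, with 8.86%, and 0.32 for CRTAP, with 3.99%. By label, COL5A2, with 26.8% glycine codons, and COL8A1, with 25.5%, had the most negative log2 fold changes, -0.28 and -0.27. COL1A2, with 27.9%, had 0.0041, and COL16A1, with 24.4%, had the most positive one.

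**Figure D4:**
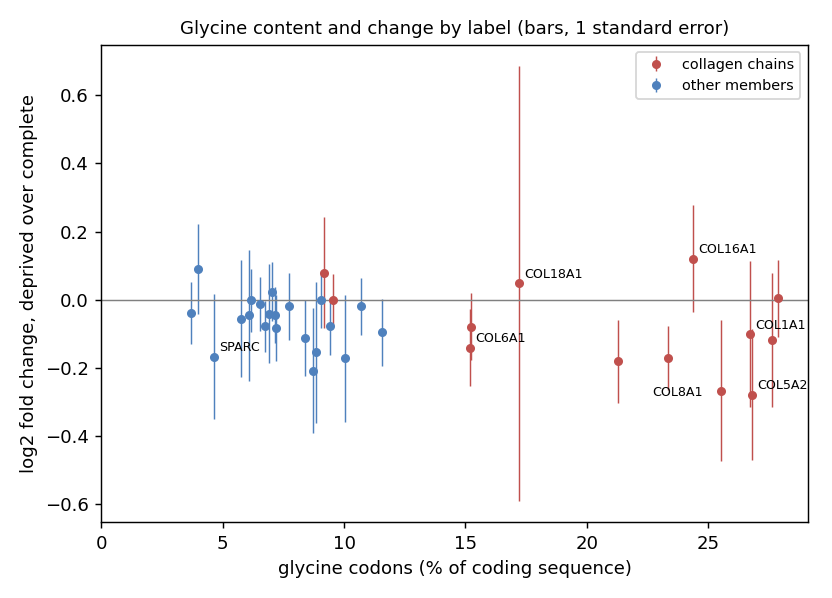
Glycine codons as percent of the coding sequence (horizontal axis) against log2 fold change, deprived over complete, from all 6 libraries (vertical axis) for the 34 members tested, collagen chains in red and other members in blue, with bars of 1 standard error. The collagen chains spread from 9.17% to 27.9% glycine codons and lie on both sides of 0, from -0.28 for COL5A2 to 0.12 for COL16A1.

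Promoters of 29 members were in the RefSeq table of GRCh38.p14, and the 250 bases before each start were searched on both strands. COL1A1, COL1A2, COL3A1, COL5A2, COL6A1, COL8A1, P4HA3, LOXL2 and BMP1 had none there, so the motif counts do not cover them. A gene with several starts, such as LOX, was counted once for each. Some searched bases were counted more than once, as those of COL4A1 and COL4A2 overlap, and those of the COL5A1 starts do too. COL4A1 and COL11A1 are among the 29 members though they were not tested. The GC box GGGCGG was in 25 of 34 promoters of members, or 73.5%, against 62.4% of the 14077 promoters of genes tested and 42.6% of all 35116 promoters. Counted by gene, it was in 23 of the 29 members. The CCAAT box was in 9 of the 34, or 26.5%, against 33.2% of promoters of genes tested, and FN1, SERPINH1, LOX and PLOD2 were among its genes. The TATA box TATAAA was in 4 of the 34, or 11.8%, against 6.07% of promoters of genes tested and 10.7% of all promoters. None of the 5 motifs contains another. The AP-1 motif TGANTCA, the same on both strands but for its middle base, was in 0 of 34, against 4.64%, and the amino acid response motif TGATGCAA was in 0, against 0.469%.

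Other genes of the pathway, in lists chosen by name, gave 0 calls by label in each list. Over all genes tested, 51% had a positive log2 fold change. Of 28 other collagen chains 7 were tested, 4 with positive and 3 with negative log2 fold changes, and 4 had 0 counts in all libraries. COL4A5 and COL4A6, type IV chains encoded on the X chromosome, had the smallest p, with log2 fold changes of -0.17 and -0.74 and standard errors of 0.20 and 0.45. Of 16 tested genes for further folding, secretion and processing, 8 were positive and 8 negative, led by SEC23A, a coat protein of secretory vesicles, at -0.17 ± 0.10, and PCOLCE2 at -0.15 ± 0.16. Of 6 tested genes of proline synthesis and recycling, 4 were positive, and the 2 with the smallest p were PEPD, the dipeptidase that frees proline, at 0.21 ± 0.15, and PYCRL at -0.24 ± 0.21. Collagen receptors were positive in 4 of 8, with ITGA11 at 0.24 and ITGA10 at -0.27. Other laminin and basement membrane genes were positive in 6 of 12, with LAMA2 at 0.64 ± 0.30, and LAMA4 at -0.19. Other matrix glycoproteins were positive in 8 of 13, with EFEMP1 at 0.70 ± 0.38, and EFEMP2 at 0.27. Counts per library were low for COL4A6, at 5 to 23, LAMA2, at 14 to 29, and EFEMP1, at 7 to 25. Without deprived 2 and complete 1, chosen by value, 2 of the 6 proline genes tested were called higher and 0 lower, and of the 8 receptors 2 were higher and 2 lower, beside 8.57% higher and 7.38% lower over all genes. The laminin list then had 1 higher and 2 lower, the glycoprotein list 1 higher and 1 lower, the other collagen chains 0 higher and 1 lower, and the folding list 0 of 15.

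Markers of the labelled cell type and of other sources of collagen were checked beside the members. VIM, the intermediate filament of mesenchymal and glial cells, measured 5100.3, 6835 and 5407 CPM in deprived and 5429, 6706 and 6901 CPM in complete libraries, and the hyaluronan receptor CD44 measured 541, 806 and 542 CPM in deprived and 541, 860.4 and 796 CPM in complete libraries, both lowest in deprived 1, deprived 3 and complete 1. The 8 glial markers, of which 5 were tested, summed to 5778 to 7804 CPM in deprived and 6103 to 7864 CPM in complete libraries. Most of each sum was VIM and CD44. Over all libraries, EGFR measured 83.4 to 98.3 CPM, NES 42.2 to 67.9 CPM and OLIG2 1.52 to 6.84 CPM. GFAP, the defining astrocyte filament, had 0 to 3 counts in deprived and 2 to 6 counts in complete libraries, S100B had 0 counts in all 6, and SOX2 had at most 1 count. Of the 8 markers of fibroblasts and pericytes 5 were tested, with summed levels of 94.8 to 113 CPM in deprived and 84.0 to 101 CPM in complete libraries. Of these markers, DCN had at most 10 counts, THY1 at most 3 counts and PDGFRA at most 16 counts in any library. ACTA2 measured 16.4 to 22.3 CPM, LUM 5.25 to 10.8 CPM and RGS5 3.72 to 9.22 CPM over all libraries. FAP, a protease of activated fibroblasts, measured 61.1, 35.6 and 57.4 CPM in deprived and 44.4, 30.1 and 31.4 CPM in complete libraries, highest in deprived 1, deprived 3 and complete 1, with a log2 fold change of 0.54 ± 0.22, an unadjusted edgeR p of 0.033 and an adjusted p of 0.999. PDGFRB, the platelet-derived growth factor receptor of pericytes, measured 17.03, 21.7 and 15.00 CPM in deprived and 20.5, 21.1 and 24.8 CPM in complete libraries, lowest in deprived 1, deprived 3 and complete 1, with a log2 fold change of -0.31 ± 0.17. Without deprived 2 and complete 1, FAP was called higher, at 0.95 ± 0.12 with an edgeR adjusted p of 3.54e-07, and PDGFRB lower, at -0.52 ± 0.17 with an edgeR adjusted p of 0.0378. These were the 2 calls among the 5 fibroblast and pericyte markers tested, while 3 of the 5 glial markers tested were called lower and 0 higher, beside the same shares over all genes. The 3 were CD44 at -0.61, VIM at -0.37 and NES at -0.38. The growth protocol in the labels calls the cells epithelial, but CDH1 and KRT5 had 0 counts in all libraries. Endothelial markers summed to at most 5.87 CPM, epithelial ones to at most 1.66 CPM and leukocyte ones to at most 0.707 CPM in any library. The part of these markers in the members' values was not tested.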

How the data were processed

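RNA of 6 U87MG libraries was analysed, 3 per medium. Per the labels' protocols, total RNA (500 ng) was made into libraries with the QuantSeq 3′ mRNA kit. The authors deposited raw counts, 1 row per gene symbol, that were not normalized. The submitters' processing notes name Bowtie2. The counting program, build, annotation and strand setting were not stated there or in the labels. Columns were matched to libraries by title, with 0 left unmatched, and 286 symbols stood on more than 1 row, none of them a member.

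Counts were tested with edgeR 4.0.16 in R 4.3.3, with filterByExpr (minimum count 10), TMM factors and quasi-likelihood F tests of deprived against complete over all 13068 genes passing the filter, with Benjamini-Hochberg adjusted p under 0.05 as threshold. The biological coefficient of variation was 14.1%. The standard error is the log2 fold change divided by the square root of the F statistic. Counting floors cover counting error only. The procedure was tested on simulated counts. Members and gene lists were chosen with earlier results of these data known. All members are named, with a value in every library at a mean of at least 10 CPM; fold changes are given for the smallest p of each role, the 4 largest in each direction and 6 fixed genes, and from other lists for the 2 smallest p. PHGDH, ASNS and MALAT1 served as the library check. Further fold changes, and the markers described singly, were picked after their values were seen. Coding sequences were the longest per gene in GENCODE release 29 (GRCh38); promoters came from RefSeq GRCh38.p14. Alternatives were other scalings, filters, the replicate block, summed rows, DESeq2 1.42.0, limma 3.58.1 voom and each library left out, with the removal of deprived 2 and complete 1 together added after the data were seen. Tables and figures used Python 3.11.15, pandas 2.3.3, NumPy 2.4.6, SciPy 1.17.1 and Matplotlib 3.10.9.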

Additional observations from a re-analysis of the deposited data

How the results depend on the processing

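Under every planned setting, 0 members and 0 genes were called, each library left out included, and the median log2 fold change of the members stayed negative, from -0.08 without complete 1 to -0.04 without deprived 1. At an unadjusted edgeR p under 0.05 there were 1037 genes and 5 members without deprived 2 and 1141 genes and 1 member without complete 1, against 247 genes and 0 members with all libraries. Without both libraries together, 1 member higher, 9 members lower and 2096 genes were called. With the replicate number as a block (replicate block), the median of the members was -0.07, with 0 members called and 429 genes at an unadjusted p under 0.05. Correlations between the deviations of libraries 1, 2 and 3 of each label, number by number, were 0.384, 0.381 and -0.281. Libraries of unlike number reached 0.414 for deprived 3 with complete 1 and 0.419 for deprived 2 with complete 3. These values follow the order of libraries that crosses the labels, so they cannot decide whether the numbers mark pairs. Fold changes near 0 turned sign, for a cause that was not tested. Scaling by library totals gave -0.0048 for COL1A2 and -0.0085 for LOXL2, upper quartile scaling -0.0010 and -0.0042, the filter of CPM 5 in 3 libraries -0.00070 for LOXL2, the replicate block -0.00061 for LOXL2, and limma-voom 0.000125 for P4HA1 and -0.00052 for LOXL2. Without deprived 2 and complete 1 together the turned values were -0.17 for COL1A2, -0.67 for COL18A1, 0.032 for COL6A2, 0.020 for COL6A3, -0.045 for COL12A1, 0.0035 for PPIB, 0.10 for PLOD3, 0.029 for COLGALT1, 0.26 for SERPINH1, -0.065 for LAMC1 and 0.0090 for FBN1. With 1 library left out, the members that turned ranged from -0.34 to 0.023 for COL1A1, from -0.041 to 0.023 for COL6A3, from -0.19 to 0.12 for P3H1, from -0.030 to 0.051 for LOXL2, from -0.19 to 0.042 for LAMB1, from -0.093 to 0.063 for COL1A2, from -0.44 to 0.99 for COL18A1, from -0.057 to 0.18 for COL12A1, from -0.065 to 0.045 for PLOD3, from -0.18 to 0.10 for SERPINH1, from -0.037 to 0.059 for LAMC1, from -0.055 to 0.062 for P4HA1, from -0.036 to 0.015 for P4HA2, from -0.084 to 0.032 for COLGALT1 and from -0.075 to 0.024 for FBN1. Of members that kept their sign, those that moved most ranged from -0.53 to -0.12 for COL5A2, from -0.47 to -0.077 for COL8A1, from -0.44 to -0.020 for PCOLCE, from -0.37 to -0.024 for TNC, from -0.36 to -0.053 for SPARC, from -0.29 to -0.072 for BMP1, from -0.24 to -0.013 for COL4A2 and from 0.0024 to 0.23 for CRTAP. COL18A1 moved to 0.54 under limma-voom and to 0.22 with the replicate block. Low counts limit what can be said of COL3A1, COL4A1, COL11A1, COL18A1 and P4HA3, and the cause of the low counts was not tested.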

Other observations

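Among the other matrix genes, chosen here after their values were seen, several stood apart in the libraries that set COL1A1 apart. ITGA2, the alpha subunit of the collagen receptor integrin alpha2beta1, measured 129, 272 and 142 CPM in deprived and 135, 255 and 269.6 CPM in complete libraries. Its log2 fold change by label was -0.28 with a standard error of 0.31. ITGB1, the shared beta subunit, measured 663, 808 and 658 CPM in deprived and 677, 781 and 813 CPM in complete libraries. DDR2, a receptor tyrosine kinase bound by fibrillar collagen, was highest where these were lowest, with 31.5, 22.98 and 32.7 CPM in deprived and 33.6, 19.3 and 21.8 CPM in complete libraries. The proteoglycan VCAN measured 472, 652 and 458 CPM in deprived and 473, 618 and 674 CPM in complete libraries, lowest in deprived 1, deprived 3 and complete 1. SPP1, the secreted phosphoprotein osteopontin, measured 243, 144 and 248 CPM in deprived and 251, 140.3 and 147 CPM in complete libraries, highest in those same libraries. COL13A1, a transmembrane collagen, measured 42.4, 64.8 and 40.3 CPM in deprived and 37.4, 63.6 and 61.1 CPM in complete libraries. PYCR1, the mitochondrial enzyme of the last step of proline synthesis, measured 49.2, 26.8 and 45.1 CPM in deprived and 53.5, 29.4 and 26.1 CPM in complete libraries, highest in deprived 1, deprived 3 and complete 1. LAMA5, a laminin alpha chain, measured 46.1, 69.8 and 39.1 CPM in deprived and 37.1, 67.2 and 73.8 CPM in complete libraries, the same 3 libraries again being lowest. All 8 genes had an edgeR adjusted p of 0.999 by label, and each had overlapping labels. Without deprived 2 and complete 1, a pair left out because of its values, all 8 were called at an edgeR adjusted p under 0.05. Over all genes 8.57% were called higher and 7.38% lower, but the 8 were picked by their values, so their count is no share to compare. The lower ones in deprived medium were ITGA2 at -0.95 ± 0.08 (log2 fold change ± standard error), LAMA5 at -0.73, COL13A1 at -0.59, VCAN at -0.48 and ITGB1 at -0.27. The higher ones were SPP1 at 0.78 ± 0.07, PYCR1 at 0.76 and DDR2 at 0.64.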
